A study of Homo sapiens with 13 samples.

Results

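The accessible chromatin of 10 genes of Notch signalling was described: the receptors NOTCH1, NOTCH2, NOTCH3 and NOTCH4, the ligands DLL1, DLL3, DLL4, JAG1 and JAG2, and the target gene HES1. They were chosen by name and make up 10 of 20033 protein-coding genes of GENCODE release 44 on hg38, and all 10 were found. For each gene, the regions no more than 1 kb from the transcription start site (TSS), in the gene body and in the 50 kb to either side were taken from the list of accessible regions (the atlas) of each cell line. The gene body with its flanks is called the locus, and the covered share is the percentage of its bases that lie inside regions.

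The regions come from ATAC-seq, which marks open DNA by where a transposase can cut it, in H82 and H146. Both are established cell lines from human small cell lung cancer (SCLC), of wild-type genotype by their labels. H82 belongs to the SCLC-N subtype, driven by NEUROD1, and H146 to another neuroendocrine subtype. The libraries were made from untreated cells (3 of H82 and 4 of H146) or from cells given the drug FHD-286 (3 of each line), at 100 nM over 14 days. FHD-286 blocks SMARCA4 and SMARCA2, the motor subunits of the SWI/SNF chromatin remodeller. Each atlas pools the untreated and treated libraries of its line, so the effect of FHD-286 was not tested and no value below has a spread between cultures.

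Notch receptors sit in the cell membrane and are engaged by DLL and JAG ligands on a neighbouring cell. ADAM proteases and then γ-secretase cut the engaged receptor, and the freed intracellular domain enters the nucleus, binds RBPJ and switches on HES and HEY genes, whose products are repressors. In neuroendocrine lung tumour cells Notch activity is known to repress the neuroendocrine state, and DLL3, an inhibitory ligand, is commonly present.

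The H82 atlas held 206927 regions covering 5.41% of the 24 chromosomes, and the H146 atlas held 174093 regions covering 4.49%, a ratio of 1.20. The locus of the median protein-coding gene was covered to 7.52% in H82 and to 6.16% in H146. Among marker genes, NEUROD1 had a TSS region in H82 only. The neuroendocrine genes INSM1, SYP and CHGA had one in both lines, but so did POU2F3, YAP1, COL1A1 and PECAM1, which mark other SCLC subtypes or other cells, and the leukocyte gene PTPRC had none. Line, its response to FHD-286, number of libraries, their depth (unknown here) and the DNA copies of each line cannot be told apart. A region of an atlas may come from untreated cells, treated cells or both.

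The atlases were not independent in their exact coordinates. Of 119959 H82 regions that overlapped exactly 1 H146 region, 35420 (29.5%) began at the identical base, whereas each offset of 1 to 20 bp to either side held 109 to 539. The ends were identical for 35452 (29.6%), and both edges for 19180 (16%). In the 10 Notch loci the starts coincided for 43 of 136 such pairs, the ends for 47 and both for 22 (16.2%). Those 22 were 6 at HES1, 5 at DLL1, 3 at NOTCH4, 3 at DLL3, 2 at JAG1, 2 at JAG2 and 1 at NOTCH1, and none lay at NOTCH2, NOTCH3 or DLL4. The source of the identical edges was not tested. A region found in both atlases therefore need not be 2 separate observations, whereas a region found in 1 line overlapped nothing in the other.

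**Figure D1:**
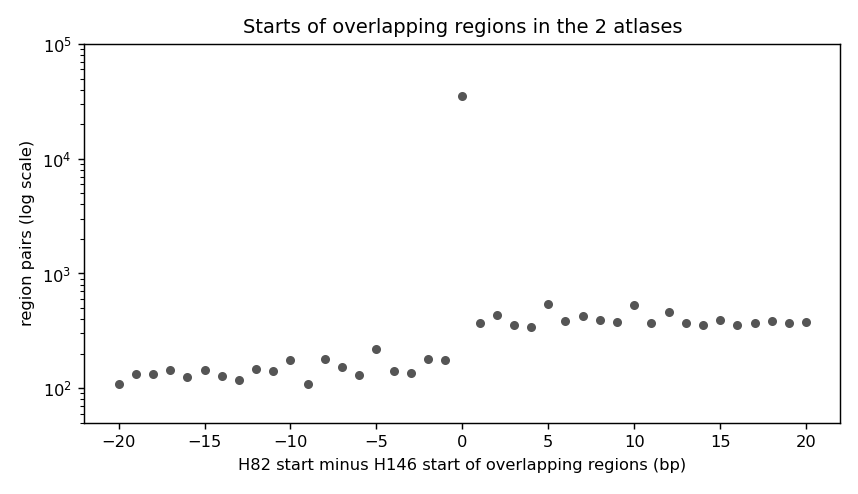
Difference in bp between the start of an H82 region and the start of the only H146 region it overlaps (x axis), with the number of region pairs at each difference on a log scale (y axis). The point at 0 stands at 35420 pairs, and all other points lie between 109 and 539.

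The reference sequences below show the places the results turn on. The HES1 promoter is the textbook target of the Notch transcription complex, and the 250 bases before its start (chr3:194135898-194136147, plus strand, RefSeq, GRCh38.p14) held the RBPJ word GTGGGAA, in capitals, from 85 to 79 bases before the TSS. The bases before NOTCH3 (chr19:15200996-15201245, minus strand) carry in capitals the 110 that lay inside a region of H146 and in none of H82. The other sequences are the central 200 bases of the widest line-only region at NOTCH1, NOTCH2 and NOTCH3 among those outside exons, read on the strand of the gene from hg38: chr9:136550305-136550504, H82 only, chr1:120075957-120076156, H82 only, and chr19:15197952-15198151, H146 only. Capitals there mark the E-box word CAGCTG, and E-box forms that were not searched stand in lower case.
HES1 promoter: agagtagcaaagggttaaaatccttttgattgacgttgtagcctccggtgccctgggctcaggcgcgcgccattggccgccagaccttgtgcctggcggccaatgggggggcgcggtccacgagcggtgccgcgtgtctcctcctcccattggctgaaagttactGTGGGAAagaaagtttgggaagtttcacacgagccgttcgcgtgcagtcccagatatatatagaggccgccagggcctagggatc
NOTCH3 promoter: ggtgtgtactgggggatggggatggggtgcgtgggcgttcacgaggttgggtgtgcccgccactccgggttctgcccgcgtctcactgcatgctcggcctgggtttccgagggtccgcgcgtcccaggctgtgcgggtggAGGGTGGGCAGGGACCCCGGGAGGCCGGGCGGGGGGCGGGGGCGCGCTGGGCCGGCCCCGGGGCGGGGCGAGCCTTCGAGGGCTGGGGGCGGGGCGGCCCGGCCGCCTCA
NOTCH1, H82-only region: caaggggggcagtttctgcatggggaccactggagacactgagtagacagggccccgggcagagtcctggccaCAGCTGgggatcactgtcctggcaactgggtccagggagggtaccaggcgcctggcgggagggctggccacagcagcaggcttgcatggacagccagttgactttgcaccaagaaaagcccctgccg
NOTCH2, H82-only region: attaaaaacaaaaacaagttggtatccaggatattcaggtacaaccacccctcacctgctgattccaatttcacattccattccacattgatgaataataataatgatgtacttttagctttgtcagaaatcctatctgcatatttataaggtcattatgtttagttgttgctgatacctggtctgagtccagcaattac
NOTCH3, H146-only region: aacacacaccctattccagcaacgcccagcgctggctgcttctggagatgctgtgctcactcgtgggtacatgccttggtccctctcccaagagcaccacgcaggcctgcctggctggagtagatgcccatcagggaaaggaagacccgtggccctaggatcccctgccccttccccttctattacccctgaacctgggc

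The RefSeq promoter table held 8 of the 10 genes (not DLL1 and DLL3), and 7 words were searched in them on both strands. The word for RBPJ was GTGGGAA, and other forms of the RBPJ site were not searched. The E-box was searched as CAGCTG, as the form CAGATG and as the form CACGTG. The word for OTX2 was TAATCC, that for FOXA was TGTTTAC and that for AP-1 was TGANTCA. HES1 was the sole member with the RBPJ word, which 5.46% of 27305 promoters held. NOTCH4 held the AP-1 word, 18 to 12 bases before its TSS, as did 6.6% of promoters. The other 6 promoters matched no word. For comparison, 13.8% of all promoters held CAGCTG, 12.2% CAGATG, 6.49% CACGTG, 5.67% the OTX2 word and 2.98% the FOXA word. GC content ran from 58% at NOTCH4, the median of all promoters, and 59.2% at HES1 to 78% at NOTCH3 and 81.6% at JAG2. NOTCH4 had 3 CpG dinucleotides in these 250 bases, and the other 7 had 17 to 38, where the median promoter had 11.

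Across the loci, in both lines 7 of the 10 genes had a region at the TSS, that is, no more than 1 kb from it: NOTCH1, all 5 ligands and HES1. Over all protein-coding genes this share was 75.4%. NOTCH3 had a TSS region in H146 only, a class that held 1.86% of all genes. No member had one in H82 only, against 5.10% of genes, and NOTCH2 and NOTCH4 had none in either line, against 17.7%. For NOTCH2 this depended on the start used, as described below.

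The covered share was at least 1.5 times higher in H82 at 2 loci, NOTCH1 and NOTCH2, and at least 1.5 times higher in H146 at none. Among all protein-coding genes 29.3% passed this fold towards H82 and 5.23% towards H146, so 2 of 10 is no more than the atlases give at large. After division by the covered share of each whole atlas, NOTCH1 and NOTCH2 still passed towards H82 (background 19.1%) and NOTCH3 and HES1 passed towards H146 (background 14.3%). The median log2 ratio of H82 to H146 was 0.30 over the members, beside 0.19 over all genes and 0.27 for the whole atlases. It was 0.67 over the receptors and 0.30 over the ligands. The 4 receptors were scattered, at 1.67 (NOTCH2), 1.03 (NOTCH1), 0.31 (NOTCH4) and -0.50 (NOTCH3), so their median describes none of them.

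**Figure D2:**
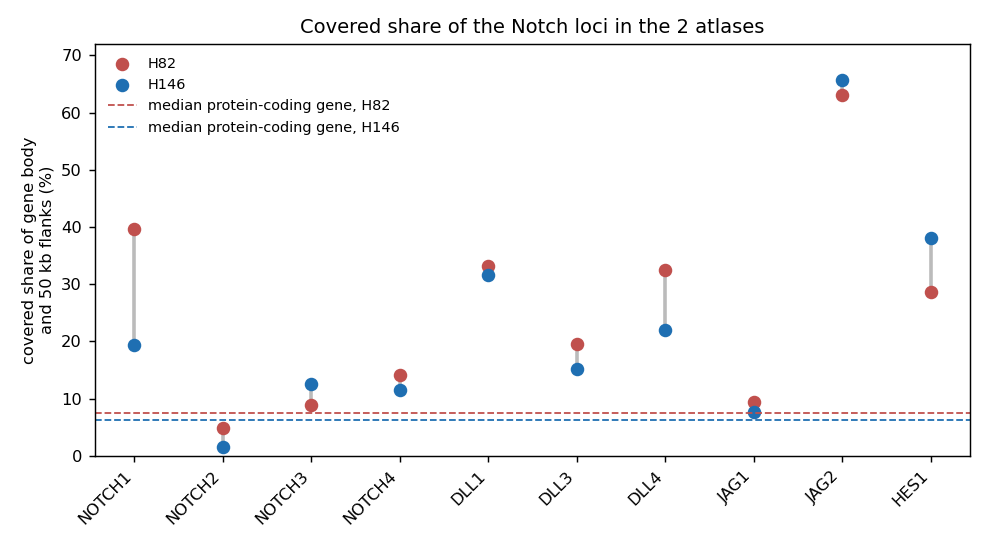
Covered share (y axis, percent) of the gene body and 50 kb flanks of each member (x axis) in H82 (red) and H146 (blue), 1 value per line with no replicates, and the median of all protein-coding genes as dashed lines. NOTCH1 shows the widest gap, 39.6% in H82 against 19.4% in H146, and HES1, NOTCH3 and JAG2 stand higher in H146.

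**Figure D3:**
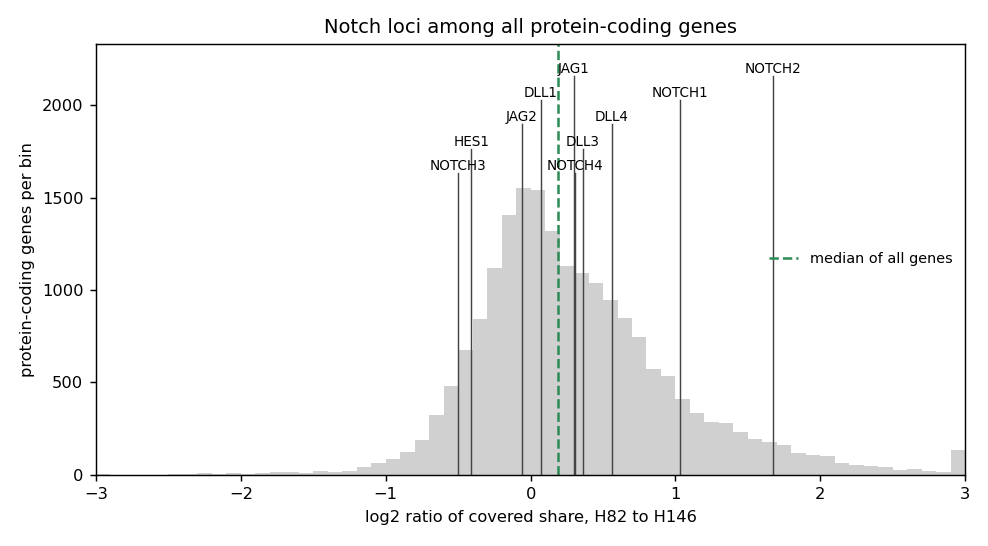
Number of protein-coding genes (y axis) by log2 ratio of covered share, H82 to H146 (x axis), with genes beyond 3 in either direction counted in the outermost bars. Vertical lines place the members, from NOTCH3 at -0.50 to NOTCH2 at 1.67, and the dashed line is the median of all genes, 0.19.

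NOTCH1 (chr9:136494433-136546048, minus strand), the receptor named first in the family, had the most regions of the 10 loci in H82. It held 40 regions in H82 and 29 in H146, which covered 39.6% and 19.4% of its 151.6 kb, a ratio of 2.04. The excess lay over the whole locus: 57.8% against 25.7% of the gene body, 41.2% against 20.4% of the 50 kb upstream and 19.1% against 11.8% of the 50 kb downstream. At the TSS itself the lines were alike, with a region of 5854 bp in H82 and of 4734 bp in H146 that both spanned the start. Much of the difference came from regions that overlapped but were wider in H82. Of the bases covered in H146, 94.6% were also covered in H82, whereas 46.4% of the bases covered in H82 were covered in H146. A stretch of 1995 bp in H82, over an exon, overlapped an H146 region of 215 bp, and 1 of 6232 bp in an intron overlapped 1 of 3904 bp. In H82, 19 of 40 regions overlapped nothing in H146, and the widest of them was the 2347 bp region centred 4.36 kb upstream of the TSS whose centre is printed above. H146 had 3 regions of its own there, of 224 to 422 bp, and none in the gene body. The 1 Mb to either side of the locus was also more covered in H82, by 1.55 times, so that NOTCH1 no longer passed 1.5-fold when divided by it.

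NOTCH2 (chr1:119911553-120100779, minus strand) had the highest ratio of the members and the lowest covered share. Its 289.2 kb held 20 regions covering 4.84% in H82 and 7 regions covering 1.52% in H146, a ratio of 3.18, which lay at percentile 95 of all genes. All 7 H146 regions overlapped an H82 region, while 13 of the 20 H82 regions (65%, exact binomial 95% interval 40.8 to 84.6%) overlapped none in H146. Of those 13, 10 lay in introns of NOTCH2, and their widths ran from 200 to 1043 bp. The 5′ end of the gene in the annotation had no region within 1 kb in either line, but the MANE Select transcript starts 31117 bp further downstream. That start lay in a region of 3302 bp in H82 and of 1742 bp in H146. ADAM30, a testis protease gene in the same locus, had a TSS region of 460 bp in H82 only. The 5′ part of NOTCH2 has near-identical copies in the NOTCH2NL genes, and how reads shared with them were placed was not tested.

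NOTCH3 (chr19:15159038-15200995, minus strand), a receptor best known from vascular smooth muscle, was the sole member with a region within 1 kb of its TSS in 1 line only. With windows of 5 kb or 10 kb, or with the starts of all transcripts, both lines had a region. In H146 a region of 1276 bp, chr19:15199830-15201105, reached from 110 bp upstream to 1165 bp downstream of the TSS, and was wider than 83.6% of the H146 regions. In H82 the nearest region lay 4488 bp away in an intron, and H146 had a region there too. Beside the TSS region stood a further H146-only region of 771 bp, centred 2.94 kb downstream in an intron, and 1 of 235 bp, 2.02 kb upstream. The locus held 21 regions in H146 covering 12.5% and 18 in H82 covering 8.85%, a ratio of 1.42 towards H146, or 1.71 relative to the whole atlases. Divided by the 1 Mb to either side, NOTCH3 did not pass 1.5-fold (log2 ratio -0.46). H82 had 6 regions of its own, the widest of 1017 bp over an exon 23.3 kb into the gene. H146 had 9 of its own in a locus of 142.0 kb.

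NOTCH4 (chr6:32194843-32224067, minus strand), a receptor known from endothelium, had no region within 10 kb of its TSS in either line. The nearest region was 19669 bp away in H82 and 10954 bp away in H146. Its locus held 12 regions in H82 (14.2% covered) and 13 in H146 (11.5%), but 10 other protein-coding genes start there and 8 of them had a TSS region in both lines. Only 2 regions of each line touched the gene body, the first over the start of GPSM3 at the 3′ end of NOTCH4, and the other in an intron, 910 bp wide in H82 and 1074 bp in H146.

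**Figure D4:**
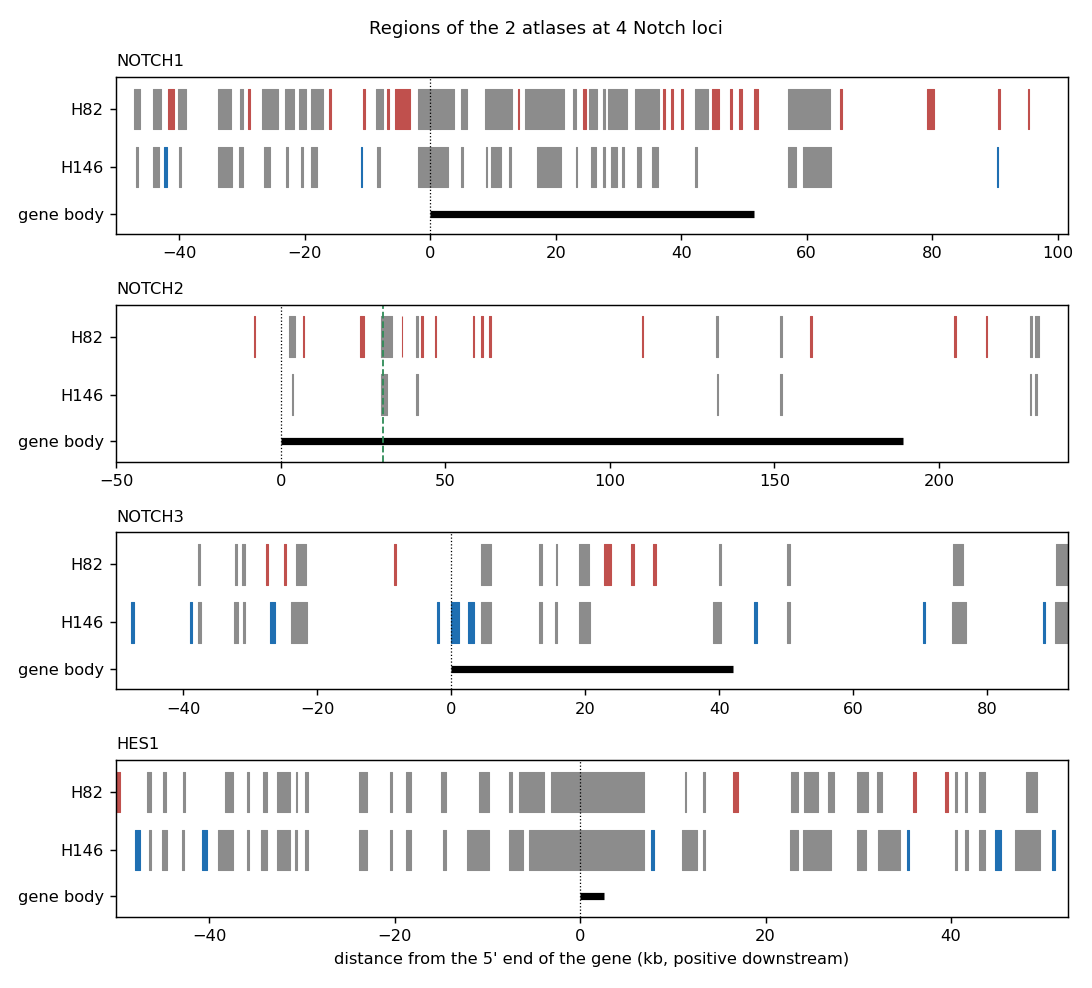
Regions of H82 (upper row of each panel) and H146 (lower row) by distance from the 5′ end of the gene in kb (x axis) at NOTCH1, NOTCH2, NOTCH3 and HES1, with regions that overlap the other line in grey, H82-only regions in red, H146-only regions in blue and the gene body as a black bar. The green dashed line at NOTCH2 is the start of the MANE Select transcript. NOTCH2 shows 13 red and no blue bars, and at NOTCH3 a blue bar covers the start.

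All 5 ligands had a TSS region in both lines and none passed 1.5-fold, raw or relative to the whole atlases, although DLL4 did so towards H82 with flanks of 100 kb. DLL4, a ligand of blood vessel sprouting, came nearest. Its locus (gene at chr15:40929340-40939073, plus strand) was covered to 32.4% by 29 regions in H82 and to 21.9% by 17 regions in H146, a ratio of 1.48. The gene body hardly differed, at 69.3% and 65.2%, and the TSS region was 7928 bp wide in H82 and 5460 bp in H146. The excess stood in the flanks, with 34.6% against 21.4% upstream and 23.1% against 14.1% downstream. H82 had 14 regions with no counterpart in H146, 12 of them intergenic, and H146 had 0 of 17 (exact binomial upper bound 19.5%). Chromosome 15 as a whole was covered 1.90 times as much in H82, and the 1 Mb to either side of the locus 2.27 times, so that DLL4 lay below its surroundings by this measure.

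DLL1 (chr6:170282206-170306565, minus strand), a ligand that activates Notch in neighbouring cells, was nearly alike in both atlases. The locus was covered to 33.1% by 20 regions in H82 and to 31.6% by 19 regions in H146. A region of 16293 bp, chr6:170282697-170298989, covered the start of the MANE Select transcript, 15487 bp from the annotated 5′ end, with both edges at the identical base in the 2 atlases. It also covered the start of FAM120B, at base 170290703 inside the DLL1 gene. The region can therefore not be assigned to DLL1 alone. The annotated 5′ end had a region of its own, 1312 bp wide in H82 and in H146 1516 bp wide. The widest line-only region was 1542 bp, in H82, in an intron of FAM120B.

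DLL3 (chr19:39498895-39508481, plus strand), the inhibitory ligand that SCLC therapies target, had an accessible TSS in both lines. Its TSS region was 3428 bp wide in H82 and 1933 bp in H146. The difference lay upstream, where the region reached 2711 bp in H82 and 1173 bp in H146, against 716 and 759 bp downstream. The locus held 21 regions covering 19.5% in H82 and 20 covering 15.2% in H146. H82 had 6 regions of its own and H146 had 5, and in each line 2 of them lay in the gene body.

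JAG1 (chr20:10637684-10673999, minus strand), a ligand mutated in Alagille syndrome, had a TSS region that was 4222 bp wide in H82 and in H146 4129 bp wide. The rest of its gene body differed between the lines in which places were open. Of 8 regions that touched the gene body in H82, 6 had no overlap in H146, and of 6 in H146, 4 had none in H82. The locus as a whole was covered to 9.36% in H82 and 7.62% in H146, close to the median gene. No other protein-coding gene starts in the JAG1 locus. The 1 Mb to either side was covered less in H82 than in H146, with a ratio of 0.74, so that JAG1 passed 1.5-fold towards H82 when divided by it.

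JAG2 (chr14:105140982-105168824, minus strand), the JAG1 paralogue, lay in the most covered locus of the 10. Regions covered 63% of it in H82 and 65.7% in H146, above 99.3% and 99.8% of all genes. A single region of 40109 bp in H82 and 40209 bp in H146 spanned the gene from its 3′ part to past its TSS, with the same start base in both atlases. All 14 H82 regions overlapped the H146 atlas, and 4 of 18 H146 regions, of 298 to 401 bp, overlapped nothing in H82. Its chromosome was covered 1.79 times as much in H82, and divided by that JAG2 passed 1.5-fold towards H146. The 1 Mb to either side leaned the other way, covered to 40.1% in H82 and 48.6% in H146, a ratio of 0.83. Divided by that ratio, JAG2 had a log2 ratio of 0.21, towards H82 and short of 1.5-fold.

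HES1 (chr3:194136148-194138732, plus strand), the repressor that Notch induces, lay wholly inside 1 region in each line. That region was 12397 bp in H146 and 10065 bp in H82, and it reached 5541 bp upstream in H146 and 3135 bp in H82, while downstream it ended at nearly the same place, at 6855 and 6929 bp. The RBPJ word printed above thus lay inside it in both lines. The locus held 32 regions in each line, but they covered 38.1% in H146 and 28.6% in H82, a ratio of 1.33 towards H146 and of 1.61 relative to the whole atlases. Divided by the 1 Mb to either side, HES1 did not pass 1.5-fold (log2 ratio -0.33). The extra bases stood on both sides, 35.3% against 28% upstream and 37.8% against 25.6% downstream. They came mostly from wider regions: of the bases covered in H82, 88.7% were covered in H146, and of those in H146, 66.6% were covered in H82. Line-only regions were few, 4 in H82 and 6 in H146, all intergenic, with the widest at 661 bp in H146, centred 45.1 kb downstream. No other protein-coding gene starts in the locus.

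The next comparison asked how many regions of the loci belonged to 1 line. Over the 10 loci 77 of 223 H82 regions had no overlap in H146 (34.5%, exact binomial 95% interval 28.3 to 41.2%), beside 40.7% of the whole H82 atlas. Of 190 H146 regions 37 had none in H82 (19.5%, interval 14.1 to 25.8%), beside 29.5% of the whole H146 atlas. The intervals cover counting error only. The receptors held 41 of the 77 H82-only regions among their 90, and 15 H146-only among 70. The ligands had 32 of 101 and 16 of 88, and HES1 had 4 of 32 and 6 of 32. By place, 23 H82-only regions lay in introns of a member, 6 over its exons, 32 were intergenic, 15 lay in other genes and 1 at the TSS of another gene. For H146 the numbers were 4 in introns, 3 over exons, 20 intergenic, 9 in other genes and 1 at a member TSS, that of NOTCH3. The 23 intronic H82-only regions were 10 at NOTCH2, 6 at NOTCH1, 4 at JAG1, 2 at NOTCH3 and 1 at DLL3. These places were not compared with those of all line-only regions of the atlases. The line-only regions were narrow, with medians of 373 bp in H82 and 308 bp in H146.

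**Figure D5:**
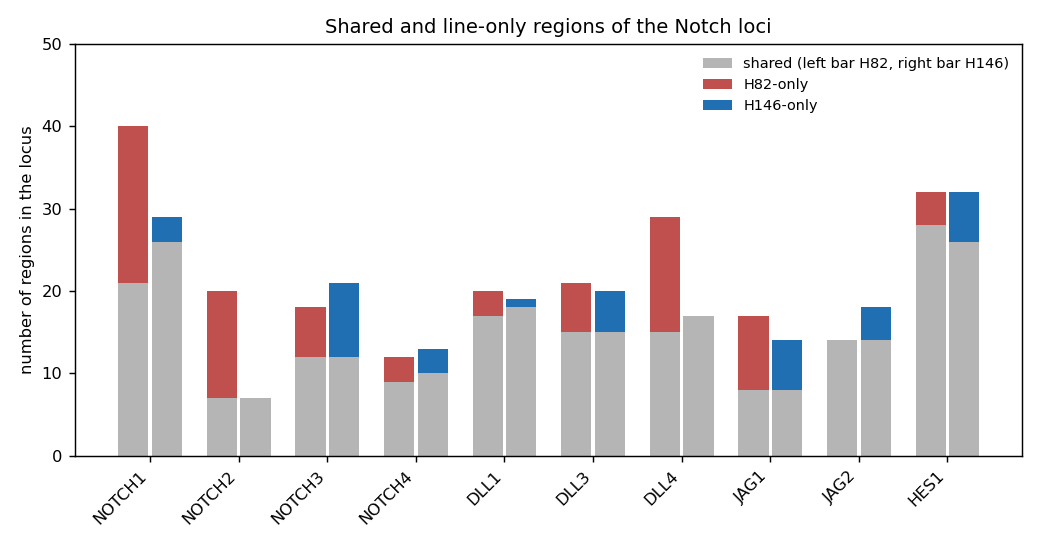
Number of regions (y axis) in the locus of each member (x axis), with H82 in the left and H146 in the right bar, split into regions that overlap the other line (grey) and line-only regions (red for H82, blue for H146). NOTCH2 and DLL4 have no H146-only and JAG2 has no H82-only region.

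Words were counted in the reference sequence of these line-only regions as a description. The E-box CAGATG, a form that NEUROD1 is known to bind, occurred 45 times in the 37.5 kb of H82-only regions (1.2 per kb) and 6 times in the 13.9 kb of H146-only regions (0.431 per kb). Over all H82-only and all H146-only regions of the atlases it stood at 1.24 and 0.895 per kb. The form CAGCTG stood at 0.799 and 0.718 per kb in the line-only regions of the loci. In all line-only regions it stood at 0.809 and 0.878. The OTX2 word occurred 25 times in H82-only regions of the loci, 0.666 per kb beside 1.26 in all H82-only regions. In H146-only regions of the loci it occurred 9 times, 0.646 per kb beside 0.448 in all H146-only regions. The RBPJ word occurred 10 times (0.266 per kb) and 5 times (0.359 per kb), beside 0.232 and 0.226 in all line-only regions. GC content was 54.7% and 56.5% in the line-only regions of the loci. It was 48.9% and 46.9% in all line-only regions, and its part in these densities was not tested.

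A list of 44 further Notch genes was read in the same way. Of these, 41 had a TSS region in both lines, where 75.4% of all genes did. RBPJL, a paralogue of RBPJ, had one in H82 only, DLK1, a non-canonical ligand, in H146 only, and RBPJ, the DNA-binding partner of the Notch intracellular domain, in neither at the annotated 5′ end. The covered share passed 1.5-fold towards H82 at 16 and towards H146 at 2, the ubiquitin ligase genes MIB1 (4.15% in H82 and 7.62% in H146) and FBXW7 (1.74% and 3.2%). Over all genes 29.3% passed towards H82 and 5.23% towards H146. The median log2 ratio was 0.25.

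Among 9 effector genes 4 passed towards H82, where 29.3% of all genes did, and none towards H146. They were HES5 (67.3% in H82 and 16.6% in H146, a ratio of 4.05), HES4 (68.5% and 25.4%, 2.70), HES2 (36.9% and 16%, 2.31) and HEYL (16.4% and 6.71%, 2.44), and all 9 effectors were more covered in H82, as were 63.7% of all genes, although HES6, HES7 and HEY2, at 1.10, 1.14 and 1.18, lay under the ratio of the whole atlases. Among 9 genes that process the receptor 6 passed towards H82, beside the same 29.3%. Among them FURIN, which cuts the receptor on its way to the surface, had 32.3% and 11.4%, and ADAM10, which cuts it after ligand binding, 5.42% and 2.14%. NCSTN, APH1A and APH1B, which encode γ-secretase subunits, had ratios of 2.39, 1.54 and 2.46. Of the 5 glycosylation genes none passed. Of the 6 genes of the transcription complex RBPJL and SPEN passed towards H82, at ratios of 1.87 and 2.28. MIB2, a ligase that acts on ligands, had 38.3% and 7.99% (4.79), and of the 11 inhibitors and turnover genes NUMB (14.6% and 4.05%), ITCH (8.64% and 4.66%) and DTX2 (28.2% and 13%) passed towards H82.

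These genes were gathered on few chromosomes. Of the 16 that passed towards H82, 13 lay on chromosome 1 (8), 14 (2) or 15 (3), which hold 15 of the 44. Those chromosomes were covered 1.53, 1.79 and 1.90 times as much in H82 as in H146. Divided by the ratio of the chromosome, 9 of the 44 passed towards H82 (16.1% of all genes did) and 4 towards H146 (12.8% of all genes). Among the 9 were HES2, HES4, HES5, HEYL, NCSTN, MIB2, NUMB and DTX2, with HES5 at 2.64 and MIB2 at 3.12, and FBXW7, DLK1, DNER and POFUT1 were the 4. HES4, MIB2, HES5 and HES2 start at bases 1000172, 1615454, 2530263 and 6424670 of chromosome 1, all near the same end of it. Division by the whole chromosome does not remove an excess in a part of it. The list was not divided by the 1 Mb to either side, so an excess of these genes over their neighbourhood was not tested. The number of DNA copies in each line was not tested.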

How the data were processed

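ATAC-seq libraries of H82 and H146 cells were trimmed by the authors with Trim Galore 0.4.4 and aligned to hg38 with bowtie2 2.3.4. Picard removed reads of the same start and orientation, MACS2 called regions in each sample, and blacklisted regions were removed. Regions within 500 bp were merged into 1 atlas per line, pooled over untreated and treated libraries. The deposited values are region starts and ends in bp, with no count, score or library. The authors used DESeq2 for FHD-286, with batch as a covariate in H146 (3 controls in 1 batch, 1 control and 3 treated samples in another). A test of FHD-286 was planned here and not run, since no values per library were used. Whether reads were shifted for Tn5 is not given in the sources used here. Depth per library was unknown, so a deeper or larger set of libraries could add regions to an atlas or, through the merging, widen and join them. Widths and covered shares include the gaps of up to 500 bp that the merging closed.

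Python 3.11.15, numpy 2.4.6, scipy 1.17.1 and bedtools 2.31.1 were used, with chromosomes 1 to 22, X and Y, coordinates counted from 1, and the TSS as the 5′ end of the gene in GENCODE release 44. Reference bases came from hg38 and from RefSeq promoters (GRCh38.p14), the build of the files. Regions were shared when they overlapped by at least 1 bp, and bedtools differed for 0 regions. The interval code was tested on simulated data. A locus passed when its covered share was at least 1.5 times that of the other line, which is a description and no test. All 10 members were named, with pathway genes where the TSS differed by line or the fold was passed. RBPJ, POFUT1, DNER and the chromosomes 1, 14 and 15 were singled out after the values were seen. Members and lists were chosen with earlier results of these data known. Values of some genes of the lists are not reported here.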

Additional observations from a re-analysis of the deposited data

How the results depend on the processing

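No paired analysis was possible because the atlases pool the libraries and carry no replicate number, and for the same reason no library could be left out. Of 90 log2 ratios recomputed over 9 settings, 84 moved by less than 1.5-fold, 6 by more, and 0 reversed among loci that had passed. The log2 ratio stayed positive at 3 members and negative at 1 (NOTCH3, -0.78 to -0.28), and it changed sign or reached 0.00 at the other 6. Genes with a TSS region in H146 only numbered 0 with windows of 5 kb or 10 kb or with the starts of all transcripts, the wider windows taking in H82 regions and the last rule adding further starts of NOTCH3. Genes with none in either line numbered 1 with 5 kb, 10 kb or the MANE Select start, and 0 with all transcripts. Flanks of 100 kb added DLL4 towards H82 (log2 ratio 0.66). Loci past 1.5-fold towards H146 numbered 1 with regions of at least 500 bp (NOTCH3), 2 divided by the whole atlas, 3 divided by the chromosome (NOTCH3, JAG2, HES1) and 1 divided by the 1 Mb to either side (DLL4). That division left NOTCH2 and JAG1 towards H82, without NOTCH1. With 50% overlap of both regions required, the line-only share was 52% in H82 and 43.7% in H146, beside 53.7% and 45% of the whole atlases. Leaving out regions of the same start and end in both atlases kept every TSS class and call, with line-only shares of 38.3% and 22%, beside 44.9% and 33.1% of the whole atlases. The MANE start, the 1 Mb division and this last setting were chosen after seeing the data.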
